A study of Mus musculus with 9 samples.

Results

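The mitochondrially encoded respiratory genes described here were the 10 genes *COX1*, *COX2*, *COX3*, *ATP6*, *CYTB*, *ND1*, *ND2*, *ND4*, *ND5*, and *ND6*, taken by symbol from count files that list 50559 genes. All 10 were among the 16618 genes that passed the low count filter and were tested. They were chosen by values measured in these same libraries, namely their share of the gene counts and their changes between the groups. RNA was sequenced from CD45+CD11b+ myeloid cells sorted from the quadriceps of *mdx* mice, which lack dystrophin and model Duchenne muscular dystrophy. The mice were 4.5 weeks old and had received vehicle (MediDrop with sucralose), the mineralocorticoid receptor antagonist spironolactone, or the glucocorticoid prednisolone in their drinking water for 7 days. Each group had 3 libraries, and each library pooled the cells of 3 mice, so a replicate was a pool and not an animal. Both sexes were used in each group, the sexes within a pool are not given, and the sort did not separate live from dead cells. All 9 libraries carried the *mdx* allele, so no comparison with healthy muscle was made.

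Mitochondria keep a small circular genome of their own. It encodes core subunits of the respiratory chain: ND genes encode parts of complex I (NADH dehydrogenase), *CYTB* encodes cytochrome b of complex III, COX genes encode the catalytic core of complex IV (cytochrome c oxidase), and ATP genes encode membrane subunits of complex V (ATP synthase). The remaining subunits, and all of complex II, are encoded in the nucleus and imported. Both strands of the circle are transcribed as long precursors, from which tRNAs are cut out to release the mRNAs and rRNAs, and of the protein genes only *ND6* lies on the light strand. In macrophages, the balance between respiration and glycolysis is known to shift with activation state.

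The circle is 16299 bases long in the mouse genome build GRCm39 (mm39), and the genes sit so close that several overlap. Overlaps matter for gene counts, because a read within one belongs to both genes, and the longer ones are printed here with the bases shared by both genes in capitals. The end of *ATP8* and the start of *ATP6* share 43 bases (chrM:7927-7969, shown within chrM:7907-7989, + strand), *ND4L* and *ND4* share 7 (chrM:10167-10173, shown within chrM:10147-10193, + strand), and *ND5* and *ND6* share 14 on opposite strands (chrM:13552-13565, shown within chrM:13532-13585, + strand). *ATP6* and *COX3* also share a single base, at position 8607, which is not printed.
ATP8 to ATP6: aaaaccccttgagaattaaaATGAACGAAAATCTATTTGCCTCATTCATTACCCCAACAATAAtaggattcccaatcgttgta
ND4L to ND4: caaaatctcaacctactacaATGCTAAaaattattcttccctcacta
ND5 to ND6: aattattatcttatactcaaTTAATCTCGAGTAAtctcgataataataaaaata

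A second feature of the sequence bears on which reads can be assigned to these genes. The nuclear genome carries a near-identical copy of part of the mitochondrial chromosome on chromosome 1 (chr1:24650616-24655269, - strand, GRCm39), which aligns to chrM:6390-11042 over 4654 bases with 2 mismatches and 1 gap (99.9% identity). The copy begins inside *COX1* and ends inside *ND4*. Its edges follow, first the mitochondrial and then the chromosome 1 sequence, with the stretch that is identical in both in capitals (chrM:6360-6419 beside chr1:24655240-24655299, and chrM:11013-11072 beside chr1:24650586-24650645, the chromosome 1 sequences read on the - strand).
COX1, mitochondrial, edge of the copy: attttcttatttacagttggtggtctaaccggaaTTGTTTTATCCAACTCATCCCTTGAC
chromosome 1, edge in COX1: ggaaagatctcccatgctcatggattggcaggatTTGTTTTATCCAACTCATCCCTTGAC
ND4, mitochondrial, edge of the copy: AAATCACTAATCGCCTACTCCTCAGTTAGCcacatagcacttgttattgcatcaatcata
chromosome 1, edge in ND4: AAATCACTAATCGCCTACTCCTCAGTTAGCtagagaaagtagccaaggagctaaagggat

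One mismatch lies at base 4 of the copy, in *COX1*, the other in *ND3*, and the gap in the tRNA gene *TrnR*. The *ND3* difference is the capital in the following pair (chrM:9431-9491 beside chr1:24652168-24652228, read on the - strand), which is printed because it leaves *ND3* with the only specific sequence among the 6 protein genes that lie whole within the copy.
ND3 start, mitochondrial: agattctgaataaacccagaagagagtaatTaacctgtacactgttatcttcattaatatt
ND3 start, chromosome 1 copy: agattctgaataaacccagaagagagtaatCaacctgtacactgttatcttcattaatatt

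The copy holds all of *COX2*, *ATP8*, *ATP6*, *COX3*, *ND3*, and *ND4L*, 31.3% of *COX1* (483 of 1545 bases), and 63.6% of *ND4* (876 of 1378 bases). A 100-base window was called specific when its exact sequence was found on the mitochondrial chromosome but not in the nuclear genome. No window of *COX2*, *ATP6*, or *COX3* was specific, whereas 39.2% of the windows of *ND4*, 69.2% of those of *COX1*, 96.8% of those of *ND2*, and 100% of those of *ND1*, *ND5*, *ND6*, and *CYTB* were. At 50-base windows these shares were 48.9% for *COX1*, 37.8% for *ND4*, 91.7% for *ND2*, and 92.4% for *ND5*, and at 150 bases they were 76.4%, 40.8%, 100%, and 100%, so they depend on the window length. The count files tally reads with more than 1 alignment apart from the genes. The counts are therefore of reads the counter could place on 1 gene, and the read length is not given in the sources used here.

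The 10 genes together took a large and variable share of the RNA. In the vehicle libraries 1, 2, and 3 they held 3.63%, 5.43%, and 5.07% of the counts on genes, in the spironolactone libraries 7.67%, 6.56%, and 7.70%, and in the prednisolone libraries 4.25%, 7.11%, and 4.07%. All spironolactone libraries lay above all vehicle libraries, but prednisolone 2 lay among the spironolactone libraries, and vehicle 1 was the lowest of the 9. The group means were 4.71% ± 0.950% for vehicle, 7.31% ± 0.648% for spironolactone, and 5.14% ± 1.70% for prednisolone (SD, *n* = 3 each). *COX1* was the most abundant of all genes in every library, at 1.62% to 3.08% of gene counts, and 4 to 6 of the 10 genes were among the 20 most abundant genes of a library. In bulk RNA, fewer cells of a type and less RNA per cell cannot be told apart.

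**Figure D1:**
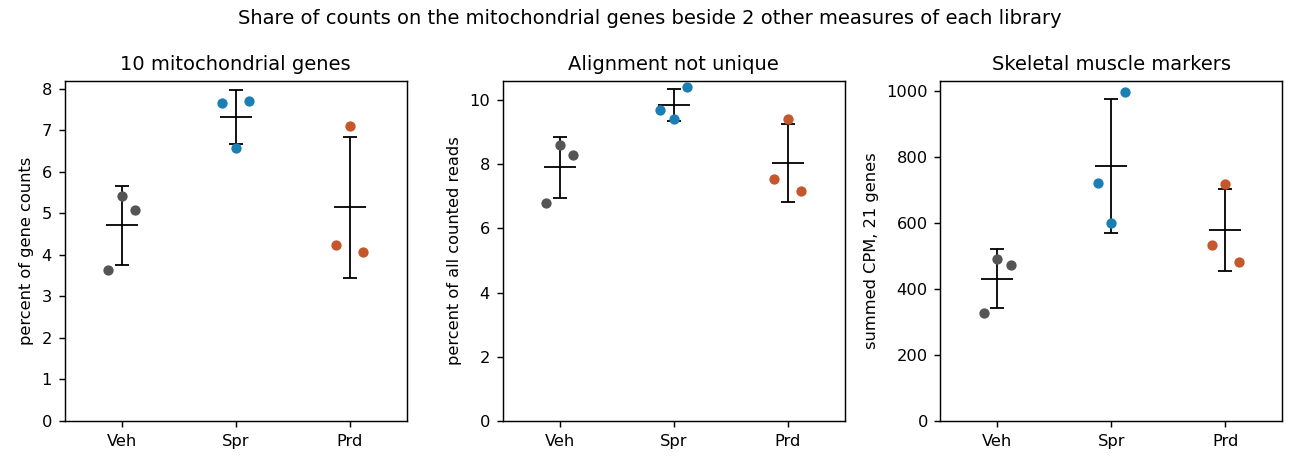
Share of each library on the 10 mitochondrial genes (left, percent of gene counts), share of reads with more than 1 alignment (middle, percent of all counted reads), and summed level of 21 skeletal muscle marker genes (right, TMM-normalized CPM). Points are libraries (Veh, vehicle; Spr, spironolactone; Prd, prednisolone), with horizontal lines at the mean and bars of ± SD; the spironolactone libraries sit between 6.56% and 7.70% in the left panel, and prednisolone 2, at 7.11%, sits among them.

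Depth varied far less than the share, with 31469815 to 32943512 gene counts per library and TMM factors of 0.980 to 1.03. Another measure of the libraries moved along with the share. Reads with more than 1 alignment made up 6.81% to 8.60% of the counted reads in the vehicle libraries, 9.42% to 10.4% with spironolactone, and 7.17% to 9.43% with prednisolone, the highest prednisolone value being that of prednisolone 2. Reads on no annotated feature were 9.33% of the counted reads in vehicle 1, against 6.77% and 6.80% in vehicle 2 and 3. They were 5.76% to 8.37% with spironolactone and 6.29% to 6.90% with prednisolone. The labelled cell type was checked by 12 myeloid markers, all detected in every library. They summed to 18048 to 21278 CPM, of which *Lyz2* (lysozyme) alone gave 8204 to 12231, while the sort markers *Ptprc* (CD45) and *Itgam* (CD11b) were at 545 to 660 and 978 to 1486 CPM. Of the 12, edgeR called 0 between spironolactone and vehicle, 1 between prednisolone and vehicle, and 2 between spironolactone and prednisolone. These stood beside 0.0181%, 1.76%, and 5.17% of all genes tested, and the 2 went opposite ways. *Itgam* was lower with spironolactone than with prednisolone (1044 ± 109 versus 1407 ± 110.0 CPM, adjusted *P* = 0.0353). *Aif1*, a macrophage calcium-binding protein, was lower with prednisolone than with vehicle (40.1 ± 6.16 versus 67.6 ± 12.2 CPM, adjusted *P* = 0.0138) or spironolactone (77.8 ± 3.33 CPM, adjusted *P* = 0.00254).

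Markers of other cell types were also present, and several moved with the mitochondrial share between vehicle and spironolactone. The 21 tested skeletal muscle markers summed to 328 to 492 CPM with vehicle, 600 to 996 with spironolactone, and 482 to 719 with prednisolone, again highest in prednisolone 2 within its group and lowest in vehicle 1 of all 9 libraries. None of the 21 passed the test between spironolactone and vehicle (12 at an unadjusted *P* under 0.05, beside 9.29% of all genes tested, 19 with a positive difference, median log2 difference 0.85), and *Mylpf*, the one muscle marker that was not tested, was at 0 in 2 libraries. In each of the other comparisons edgeR called 1 of the 21 higher and 0 lower, and 14 of the 21 had a positive difference. *Myh1*, a fast myosin, was higher with prednisolone than with vehicle (6.55 ± 0.641 versus 3.12 ± 0.656 CPM, adjusted *P* = 0.0239), beside 1% of all genes tested. *Mb*, myoglobin, was higher with spironolactone than with prednisolone (8.97 ± 2.71 versus 3.79 ± 1.63 CPM, adjusted *P* = 0.0429), beside 2.38% of all genes tested. The 12 endothelial markers summed to 125 to 180 CPM with vehicle, 239 to 351 with spironolactone, and 162 to 204 with prednisolone. The 5 tested erythroid markers summed to 70.2 to 135, 186 to 305, and 37.1 to 79.7 CPM, and the 14 lymphocyte markers to 32.6 to 34.9, 51.7 to 59.0, and 19.9 to 31.9 CPM. Between spironolactone and vehicle, edgeR called 0 of these endothelial, erythroid, and lymphocyte markers. At an unadjusted *P* under 0.05 were 11 of 12, 5 of 5, and 7 of 14, beside 9.29% of all genes tested. Their median log2 differences were 1.15, 1.19, and 1.06. Fibro-adipogenic markers (9 genes) were at 704 to 1025, 964 to 1422, and 899 to 1002 CPM, dendritic markers (7 genes) at 386 to 410, 341 to 525, and 578 to 741 CPM, and neutrophil markers (12 genes) at 742 to 4839, 1370 to 3622, and 763 to 974 CPM. Prednisolone 2 was also the highest of its group for erythroid and dendritic markers (79.7 and 741 CPM). It was not the highest for endothelial, fibro-adipogenic, and neutrophil markers (166, 965, and 968 CPM), and it was the lowest for lymphocyte markers (19.9 CPM). Neutrophils and some dendritic cells carry CD45 and CD11b and so belong to the sorted population.

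Between spironolactone and prednisolone, the comparison in which all 10 members also had a higher mean with spironolactone, edgeR called several of these markers higher with spironolactone. They were 5 of 12 endothelial markers (*Pecam1*, *Cdh5*, and *Egfl7* had the smallest *P*, with adjusted *P* = 0.00729, 0.0178, and 0.0192), 4 of 5 erythroid markers (*Hba-a2*, *Hba-a1*, and *Hbb-bt*, with adjusted *P* = 0.00212, 0.0213, and 0.0236), and 7 of 14 lymphocyte markers (*Gzma*, *Cd4*, and *Nkg7*, with adjusted *P* = 0.00588, 0.00729, and 0.00846), beside 2.38% of all genes tested. *Pecam1*, an endothelial junction protein, was at 38.8 ± 3.83 versus 18.2 ± 3.12 CPM, the globin gene *Hba-a2* at 33.0 ± 7.63 versus 7.86 ± 2.05 CPM, and the granzyme gene *Gzma* at 3.96 ± 1.19 versus 0.812 ± 0.385 CPM. *Itgax* (CD11c), a dendritic marker, was higher with prednisolone (569 ± 91.8 CPM) than with vehicle (327 ± 6.24, adjusted *P* = 0.0197) or spironolactone (356 ± 75.4, adjusted *P* = 0.0238). It was the only 1 of 7 dendritic markers called there, beside 1.76% and 5.17% of all genes tested. Against vehicle 5 of the 7 were higher with prednisolone, but against spironolactone 4 of the 7 were lower with prednisolone. *Itgax* gave most of the dendritic sum (mean 661 CPM with prednisolone and 395 with vehicle). No neutrophil or fibro-adipogenic marker was called in any comparison by edgeR (0, 5, and 6 of 12 and 7, 0, and 4 of 9 at an unadjusted *P* under 0.05 for spironolactone against vehicle, prednisolone against vehicle, and spironolactone against prednisolone). Over all genes tested, 9.29%, 14.2%, and 22.5% were at that unadjusted threshold, in the same order. The part of these other cell types and of multiple alignment in the mitochondrial values was not tested.

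Complex I was represented by 5 genes. *ND1*, which encodes a membrane subunit close to the ubiquinone site, had 4186, 6369, and 6168 CPM in the vehicle libraries, 9881, 8253, and 10071 CPM with spironolactone, and 5597, 8624, and 4557 CPM with prednisolone. *ND2*, a subunit of the membrane arm, had 2371, 4327, and 3758 CPM, then 6753, 5490, and 6630 CPM, then 3341, 5674, and 2689 CPM in the same order. For both genes the spironolactone libraries were all above the vehicle libraries, and prednisolone 2 was the only prednisolone library within the spironolactone range.

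*ND4* and *ND5* encode large proton-pumping subunits of the membrane arm. *ND4* had 2992, 4738, and 4509 CPM with vehicle, 6981, 6246, and 7698 CPM with spironolactone, and 3644, 6272, and 3718 CPM with prednisolone. *ND5* had 3403, 4832, and 4578 CPM with vehicle, 6807, 5480, and 6077 CPM with spironolactone, and 3676, 6203, and 3390 CPM with prednisolone. The light-strand gene *ND6*, also a membrane subunit, was the lowest of the 5 in CPM, with 1242, 1854, and 1713 CPM for vehicle, 2519, 2118, and 2282 CPM for spironolactone, and 1273, 2206, and 1111 CPM for prednisolone. These 3 genes repeated the order of *ND1* and *ND2*: vehicle 1 was the lowest vehicle library, prednisolone 2 the highest prednisolone library, and spironolactone 2 the lowest spironolactone library. Summed over the 5 genes, complex I reached 19013 ± 4231 CPM with vehicle, 31096 ± 3040 with spironolactone, and 20658 ± 7280 with prednisolone (SD, *n* = 3). The strand setting of the counting is not stated, so for *ND6* reads of that gene and of precursor RNA from the opposite strand cannot be told apart.

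Complex III has 1 mitochondrial subunit. *CYTB*, whose product carries electrons within the complex, had 5417, 8681, and 8297 CPM with vehicle, 13431, 11528, and 13705 CPM with spironolactone, and 7115, 11761, and 6952 CPM with prednisolone. It was the second most abundant of the 10 genes in each group by mean CPM, and prednisolone 2 again exceeded spironolactone 2.

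Complex IV was dominated by *COX1*, which encodes the subunit that holds the oxygen-reducing center. It had 15888, 24014, and 22134 CPM in the vehicle libraries, 29617, 27547, and 31365 CPM with spironolactone, and 17584, 28821, and 17143 CPM with prednisolone. *COX2*, whose product accepts electrons from cytochrome c, had only 82.0, 142, and 163 CPM with vehicle, 178, 156, and 366 CPM with spironolactone, and 138, 150, and 109 CPM with prednisolone. Spironolactone 3 stood above all other libraries for *COX2*, and vehicle 3 exceeded spironolactone 2, so the groups overlapped. *COX3*, the remaining core subunit, had 20.5, 46.3, and 40.9 CPM, then 57.3, 62.5, and 114 CPM, then 37.5, 48.2, and 32.0 CPM. For *COX3*, the spironolactone libraries lay above all 6 others, with spironolactone 3 the highest.

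Complex V was represented by *ATP6*, which encodes the subunit that forms the proton path of ATP synthase. It had 50.1, 86.9, and 113 CPM with vehicle, 114, 129, and 133 CPM with spironolactone, and 77.5, 130, and 56.5 CPM with prednisolone. The lowest spironolactone library and the highest vehicle library were 114 and 113 CPM and thus nearly equal, and prednisolone 2 lay within the spironolactone range.

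**Figure D2:**
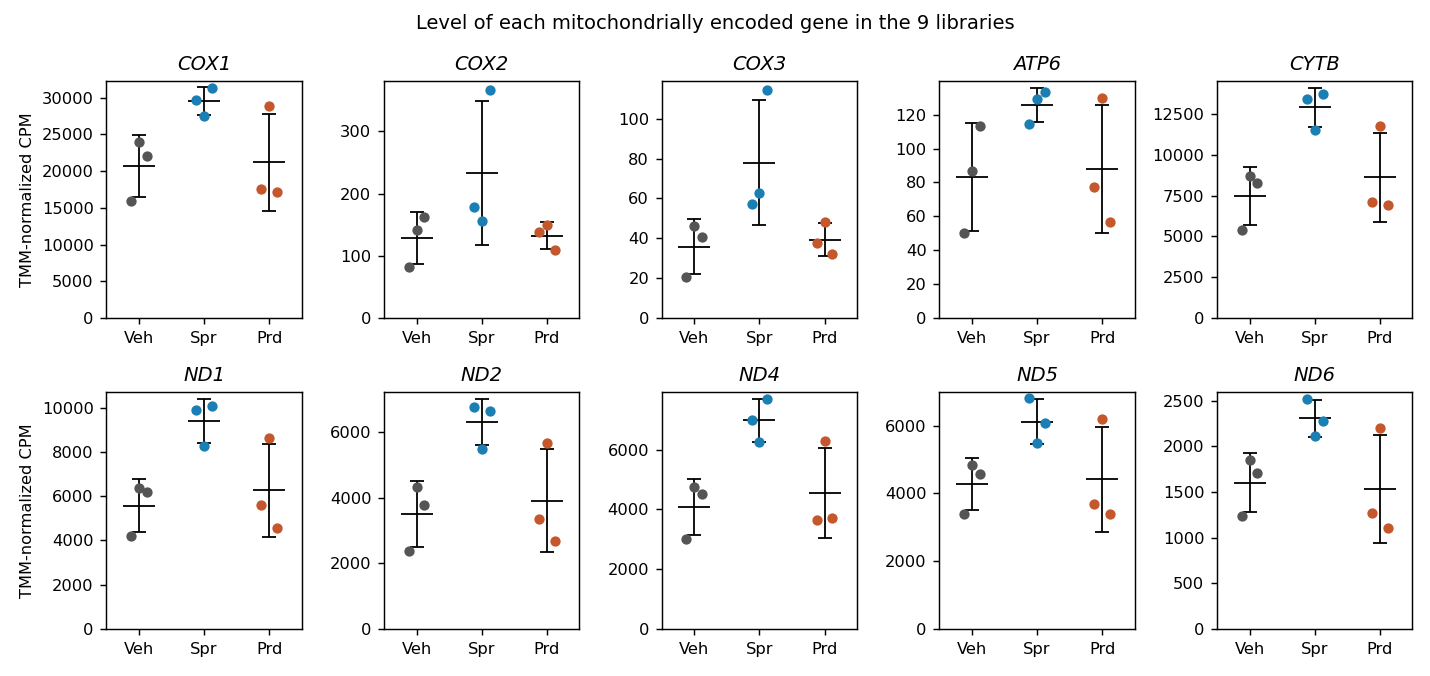
TMM-normalized CPM of each of the 10 genes (one panel per gene, linear axes from 0) in the 9 libraries. Points are libraries, horizontal lines group means, and bars ± SD (*n* = 3); prednisolone 2 is the highest prednisolone point in every panel, and for *COX1* it sits at 28821 CPM, above the lowest spironolactone library at 27547.

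Set per kb of gene length, the 10 genes spanned a wide range within each group. In the vehicle group *COX1* was highest at 13384 ± 2753 CPM per kb, followed by *CYTB* at 6525 ± 1559 and *ND1* at 5825 ± 1261 (SD, *n* = 3). The ranges of *CYTB* (4735 to 7588) and *ND1* (4374 to 6655) overlapped, while that of *COX1* (10284 to 15543) lay above both. *ND2*, *ND6*, *ND4*, and *ND5* came next at 3358, 3089, 2961, and 2341 CPM per kb, and their neighbours in this order did not differ beyond their ranges. *COX2*, *ATP6*, and *COX3* were far lower at 188, 123, and 45.8 CPM per kb, and these 3 are the members that lie whole within the chromosome 1 copy.

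Among the protein genes outside the 10, *ATP8*, *ND4L*, and *ND3*, which the copy also covers, had 46.0, 19.6, and 6.16 CPM per kb in the vehicle group. These genes are transcribed in the same precursors as their neighbours. Per kb of specific 100-base windows instead of gene length, *ND4* moved up to 8127 ± 1890 CPM per kb with vehicle, beside 7143 ± 1707 for *CYTB*, 6497 ± 1406 for *ND1*, and 20679 ± 4254 for *COX1*. *Gm10925*, which RefSeq (GRCm38.p6) lists as a chromosome 1 pseudogene under the synonym *mt-Atp6*, had 85.1 ± 27.1 CPM with vehicle, 135 ± 7.53 with spironolactone, and 102 ± 36.8 with prednisolone, against 83.4 ± 31.7, 126 ± 9.93, and 87.9 ± 37.6 for *ATP6* itself. The part of the copy in the low counts of *COX2*, *COX3*, and *ATP6* was not tested.

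**Figure D3:**
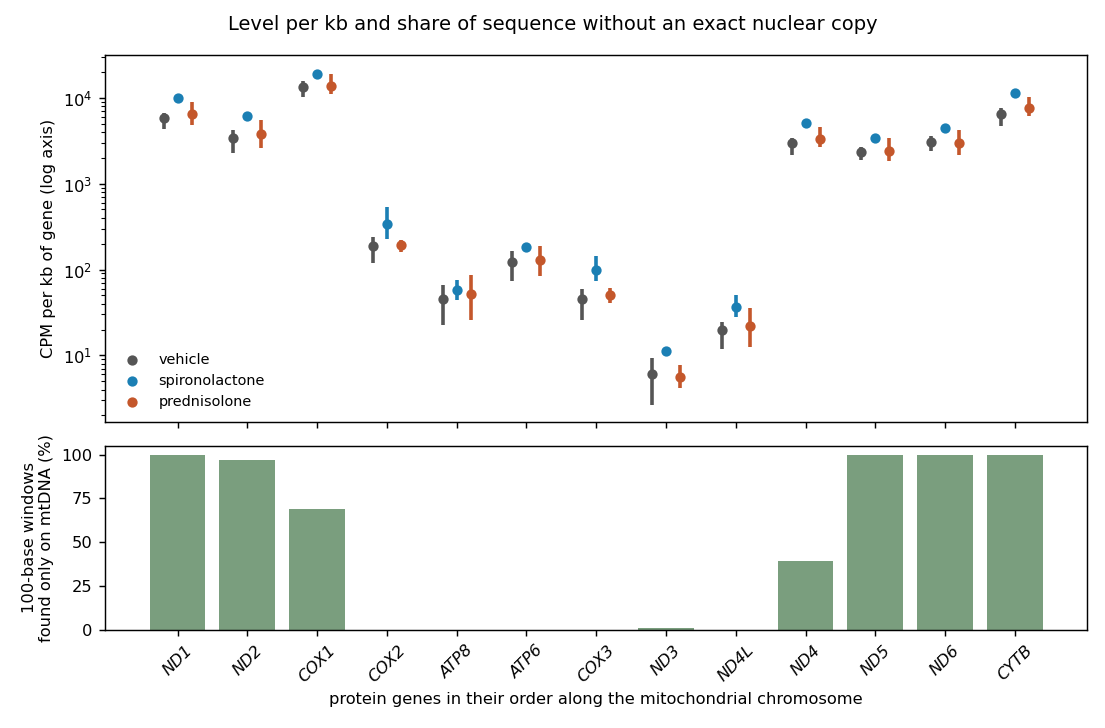
Top, level of the 13 protein genes of the mitochondrial chromosome in CPM per kb of gene length (log axis), in their order along the chromosome, with points at group means and bars from the lowest to the highest library. Bottom, percent of each gene's 100-base windows whose exact sequence is found only on mtDNA; the genes at 0% to 1.20% are those with the lowest levels, such as *COX3* at 45.8 CPM per kb with vehicle and *ND3* at 6.16.

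The makeup of the mitochondrial counts separated the vehicle from the spironolactone libraries for 6 of the 10 genes, *COX1*, *CYTB*, *ND1*, *ND2*, *ND4*, and *ND6*. By level in CPM, these groups did not overlap for 13.5% of all genes tested. That is another measure and gives no background for shares within the 10 genes. *COX1* took 43.0% to 44.6% of the counts on the 10 genes in the vehicle libraries, 38.8% to 41.1% with spironolactone, and 41.2% to 43.1% with prednisolone. *CYTB* took 15.2% to 16.1%, 17.2% to 17.6%, and 16.7% to 17.5%, and *ND1* took 11.6% to 11.98%, 12.3% to 12.9%, and 11.5% to 13.2%. *ND2* took 6.65% to 7.85%, 8.19% to 8.85%, and 6.76% to 8.12%, and *ND4* took 8.39% to 8.76%, 9.14% to 9.81%, and 8.58% to 9.35%. The shares of *ND6* were 3.33% to 3.48% with vehicle, 2.91% to 3.30% with spironolactone, and 2.79% to 3.16% with prednisolone, the vehicle libraries being the highest. These shares are tied to each other because they add up to the whole, and they were not tested.

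Across the 9 libraries, each gene followed the others closely. Pearson's *r* of the log2 CPM of a gene with the mean of the other 9 was 0.836 for *COX2*, 0.914 for *COX3*, 0.920 for *ATP6*, 0.933 for *ND6*, 0.946 for *ND5*, and 0.979 to 0.986 for the other 5. These values are a description over libraries that share scaling and groups. *COX2*, *COX3*, and *ATP6*, with the lowest *r*, were also the members with the lowest counts.

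The first comparison asked how spironolactone changed these genes relative to vehicle, and its values describe the members, since they were chosen with these values known. The fitted log2 difference was positive for all 10 genes, from 0.51 to 1.12, with a median of 0.76, against a median of 9.04e-05 over all genes tested. In fold terms, *COX1* was 1.43-fold higher with spironolactone (log2 difference 0.51 ± 0.20 SE), *CYTB* 1.73-fold (0.79 ± 0.22), *ND1* 1.69-fold (0.75 ± 0.23), and *COX3* 2.17-fold (1.12 ± 0.39). None passed the adjusted threshold of 0.05 by the quasi-likelihood test of edgeR (adjusted *P* from 0.234 for *CYTB* to 0.700 for *ATP6*), beside 0.0181% of all genes tested. At an unadjusted *P* under 0.05 were 7 of the 10, beside 9.29% of all genes tested, and DESeq2 and limma-voom also called 0 of the 10. Without a low count filter, edgeR called all 10 here and all 10 between spironolactone and prednisolone. Over all genes, that fit called 528 and 1940 in these comparisons, against 3 and 859 with the filter.

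The other members also had positive differences. *ND2* was 1.80-fold higher (0.85 ± 0.30), *ND4* 1.71-fold (0.77 ± 0.23), *COX2* 1.81-fold (0.86 ± 0.39), *ATP6* 1.51-fold (0.59 ± 0.37), *ND5* 1.43-fold (0.52 ± 0.22), and *ND6* 1.44-fold (0.52 ± 0.24), each as a log2 difference ± SE. For 9 of the 10 genes the 3 spironolactone libraries lay above the 3 vehicle libraries, beside 6.99% of all genes tested (6.5% lay all below), and *COX2* was the gene with overlap. Without vehicle 1, the lowest library, the median log2 difference was 0.59, and without spironolactone 3 that of *COX2* was 0.37 and that of *COX3* 0.74.

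The second comparison set prednisolone against vehicle, and the members differed little on average. The log2 difference ran from -0.07 for *ND6* to 0.21 for *CYTB*, with a median of 0.10 against -0.01 over all genes tested. No member was called by edgeR (adjusted *P* 0.745 to 0.979), DESeq2, or limma-voom, none was at an unadjusted *P* under 0.05 (14.2% of all genes tested were), and the libraries overlapped for all 10, whereas 1.76% of all genes tested were called and 19.7% had groups that did not overlap (10.4% higher and 9.27% lower). The direction rested on single libraries: without prednisolone 2 the median was -0.18, without vehicle 1 it was -0.11, and without prednisolone 3 it was 0.27. The coefficient of variation was 31.2% for *COX1* with prednisolone against 6.48% with spironolactone, while *COX2* (16.2% against 49.6%) and *COX3* (21.1% against 40.3%) varied more with spironolactone.

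The third comparison set spironolactone against prednisolone. All 10 genes had a higher mean with spironolactone, with log2 differences of 0.47 (*ND5*) to 0.99 (*COX3*) and a median of 0.59 against 0.03 over all genes tested. For *COX1* the difference was 0.48 ± 0.20, for *CYTB* 0.58 ± 0.22, for *ND1* 0.59 ± 0.23, and for *ND4* 0.62 ± 0.23 (SE). None was called by edgeR (adjusted *P* 0.137 to 0.478), DESeq2, or limma-voom, beside 5.17% of all genes tested, 7 were at an unadjusted *P* under 0.05 beside 22.5%, and the spironolactone libraries were all above the prednisolone libraries for *COX2* and *COX3*, beside 15.1% of all genes tested. Without prednisolone 2, 7 of the 10 were called (*COX1*, *CYTB*, *ND1*, *ND2*, *ND4*, *ND5*, and *ND6*), with a median log2 difference over the 10 of 0.91. That fit called 232 genes over all genes tested, against 859 with all libraries. The comparisons share libraries, so their values are set side by side and are not independent of each other.

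**Figure D4:**
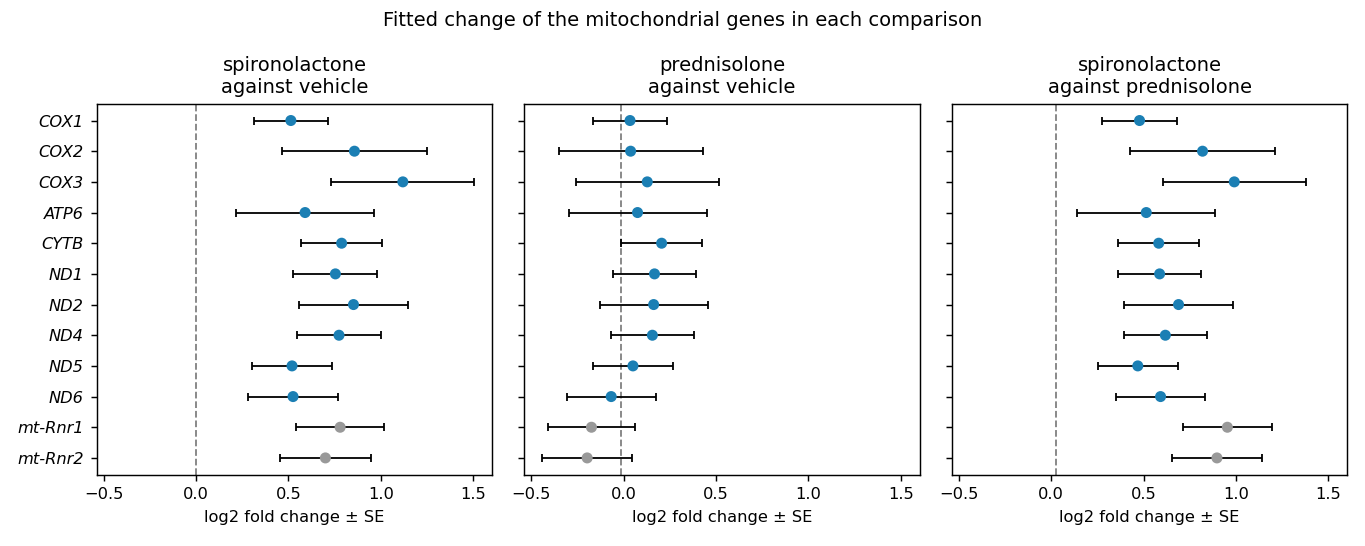
Fitted log2 fold change ± SE of the 10 genes (blue) and of both mitochondrial rRNAs (gray) in each comparison, with the dashed line at the median of all genes tested. In the left panel all 10 members lie between 0.51 and 1.12, in the middle panel between -0.07 and 0.21, and in the right panel between 0.47 and 0.99; none passed the adjusted threshold.

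Of the 27 other genes listed for the mitochondrial chromosome, 7 were tested. Both rRNAs of the mitochondrial ribosome were among them. *mt-Rnr1* (12S) had 779 ± 226 CPM with vehicle, 1337 ± 205 with spironolactone, and 690 ± 175 with prednisolone, and *mt-Rnr2* (16S) had 1782 ± 446, 2896 ± 415, and 1555 ± 507 CPM (SD, *n* = 3). Between spironolactone and vehicle their log2 differences were 0.78 ± 0.24 and 0.70 ± 0.24 (adjusted *P* = 0.311 and 0.409). Between spironolactone and prednisolone they were 0.95 ± 0.24 and 0.90 ± 0.25 (adjusted *P* = 0.0511 and 0.0669), and there, unlike for *COX1*, the libraries did not overlap. Prednisolone libraries held 4.32 to 4.58 rRNA counts per 100 counts on the 10 genes, below the 5.01 to 5.78 of vehicle and the 5.36 to 6.16 of spironolactone.

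The other protein genes had low counts and were not called in any comparison by edgeR. *ND3* had 30 to 103 counts per vehicle library, 111 to 130 with spironolactone, and 48 to 89 with prednisolone. *ND4L* had 117 to 233, 260 to 470, and 124 to 343 counts, and *ATP8* had 9.38 ± 4.44, 11.9 ± 3.20, and 10.6 ± 6.20 CPM (SD, *n* = 3). At an unadjusted *P* under 0.05, 1 of these 3 genes stood in each comparison that involved spironolactone and 0 in that of prednisolone with vehicle. Over all genes tested, 9.29% were at that threshold between spironolactone and vehicle, 22.5% between spironolactone and prednisolone, and 14.2% between prednisolone and vehicle. Of the 22 tRNA genes, 19 had 0 counts in all libraries, and *TrnP*, at 208 to 640 counts per library, and *TrnN*, at 5 to 18, were tested and not called.

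To set these genes beside their partners, the nuclear subunits of complexes I to V were counted (77 tested genes). Between spironolactone and vehicle 0 of the 77 were called by edgeR, DESeq2, or limma-voom, 3 were at an unadjusted *P* under 0.05 (beside 9.29% of all genes tested), and 66 had a positive difference with a median log2 difference of 0.09. Between prednisolone and vehicle 0 were called by edgeR, 13 were at an unadjusted *P* under 0.05 (beside 14.2% of all genes tested), and 66 had a negative difference with a median of -0.14. The nuclear median thus lay nearer to 0 than the mitochondrial median of 0.76 in the first comparison. In the second the mitochondrial median was 0.10, and its sign turned without prednisolone 2 or vehicle 1.

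Between spironolactone and prednisolone, 9 of the 77 nuclear subunits were higher with spironolactone and 0 were lower, beside 2.38% of all genes tested that were called higher. In complex I, 5 of 36 were called, among them *Ndufb7* (84.4 ± 6.65 CPM versus 58.8 ± 6.78 CPM, log2 difference 0.52, adjusted *P* = 0.0104), *Ndufb11* (74.6 ± 5.23 versus 55.4 ± 3.86, 0.43, adjusted *P* = 0.0309), and *Ndufa11* (53.9 ± 3.78 versus 40.9 ± 2.27, 0.40, adjusted *P* = 0.0339), all accessory subunits. In complex III, 2 of 9 were called, *Uqcrq* (96.2 ± 5.93 versus 69.8 ± 3.91, 0.46, adjusted *P* = 0.0486) and *Uqcr10* (58.3 ± 7.50 versus 44.0 ± 0.606, 0.41, adjusted *P* = 0.0436). In complex V, 2 of 17 were called, *Atp5e* (69.9 ± 8.60 versus 48.8 ± 4.29, 0.52, adjusted *P* = 0.0335) and *Atp5j2* (107 versus 78.3 CPM, 0.45, adjusted *P* = 0.0419). Of complexes II and IV, 0 of 4 and 0 of 11 were called by edgeR, with 0 and 8 at an unadjusted *P* under 0.05 (beside 22.5% of all genes tested).

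In the same comparison 69 of the 77 nuclear subunits had a positive log2 difference, with a median of 0.28, and 47 had spironolactone libraries all above the prednisolone libraries, beside 15.1% of all genes tested. These calls depended on single libraries. Over all lists of mitochondrial genes given here, 12 nuclear genes were called, and 0 were called without spironolactone 3 or without prednisolone 2, 1 without spironolactone 2 or prednisolone 1, 3 without prednisolone 3, 4 without vehicle 2, and 44 without vehicle 1. *Uqcrq* shows the library that stood apart in the vehicle group, with 65.8 CPM in vehicle 1 against 91.2 and 97.5 in the others.

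**Figure D5:**
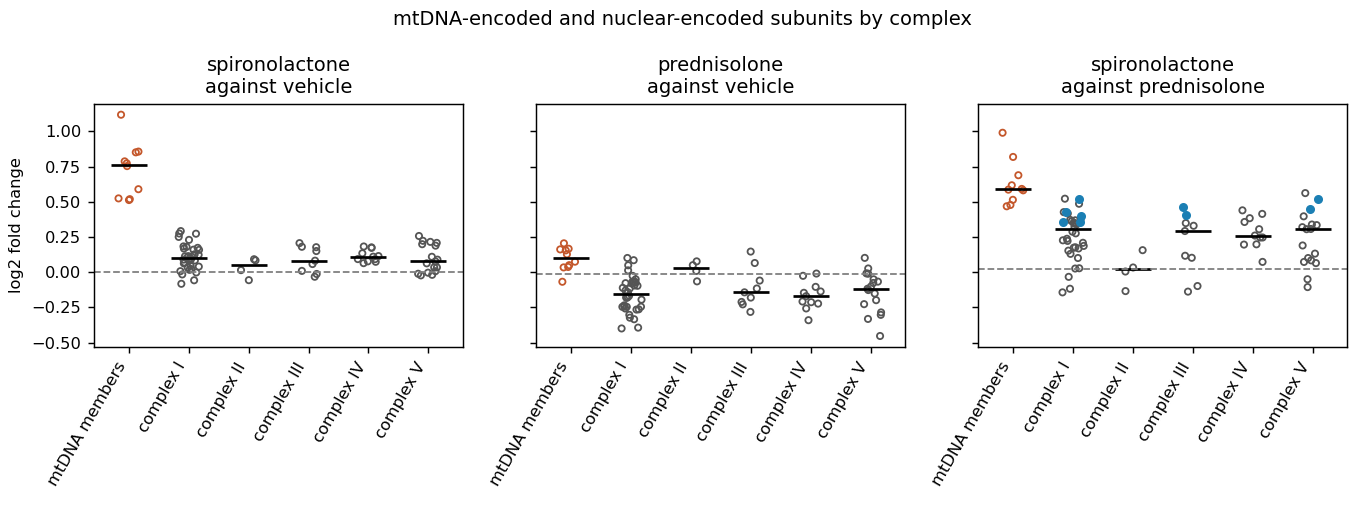
Log2 fold change of the 10 mitochondrial members (orange, open circles) and of nuclear subunits of complexes I to V (gray, open circles; filled blue where the adjusted *P* was under 0.05) in the 3 comparisons. Black lines are medians and the dashed line is the median of all genes tested; in the left panel the members have a median of 0.76, and the 77 nuclear subunits together have one of 0.09.

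The genes that maintain mtDNA and transcribe, process, and translate its RNA were read beside the 0.0181%, 1.76%, and 5.17% of all genes tested that were called in the 3 comparisons, and their counts of calls were near these shares. Of 17 genes of mitochondrial transcription, 0 were called in any comparison by edgeR (0, 0, and 3 at an unadjusted *P* under 0.05 in the order above). Over all genes tested, 9.29%, 14.2%, and 22.5% were at that unadjusted threshold. *Polrmt*, the mitochondrial RNA polymerase, had 25.0 ± 2.78 CPM with vehicle, 26.4 ± 0.563 with spironolactone, and 23.6 ± 0.360 with prednisolone, and *Tfam*, which packages mtDNA and starts transcription, had 10.7 ± 0.615, 11.8 ± 1.38, and 11.4 ± 1.12 CPM. Of 16 genes of mtDNA maintenance, such as the polymerase *Polg* (49.6 ± 2.21, 48.0 ± 3.42, and 48.5 ± 1.01 CPM), 0 were called (0, 1, and 2 unadjusted), and of 13 genes of mitochondrial translation and membrane insertion 0 were called (0, 1, and 1 unadjusted).

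Of 22 genes of mitochondrial RNA processing and decay, 1 was called. It was *Fastkd1*, a mitochondrial RNA-binding protein, which was lower with spironolactone than with prednisolone (5.37 ± 0.713 versus 8.24 ± 0.500 CPM, log2 difference -0.62 ± 0.16, adjusted *P* = 0.0411). *Lrpprc*, which stabilizes mitochondrial mRNA, had 36.7 ± 5.41, 34.3 ± 2.24, and 41.3 ± 2.35 CPM with vehicle, spironolactone, and prednisolone and was not called. Of 15 markers of mitochondrial content, 1 was called between spironolactone and prednisolone, beside 5.17% of all genes tested, and 0 in the other comparisons. At an unadjusted *P* under 0.05 were 0, 1, and 2 of the 15, beside 9.29%, 14.2%, and 22.5% of all genes tested. The called gene *Cs*, the citrate synthase of the Krebs cycle, was lower with spironolactone than with prednisolone (189 ± 9.58 versus 237 ± 11.7 CPM, -0.32 ± 0.08, adjusted *P* = 0.0398). *Tomm20*, an import receptor of the outer membrane, was at 73.2 ± 10.7, 70.4 ± 3.51, and 67.5 ± 4.56 CPM with vehicle, spironolactone, and prednisolone and was not called. Of 16 complex IV assembly genes 0 were called (1, 1, and 4 unadjusted, beside 9.29%, 14.2%, and 22.5% of all genes tested).

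Of 13 genes of the mitochondrial stress response, 1 was called in each comparison that involved prednisolone. Of all genes tested, 1.76% were called between prednisolone and vehicle and 5.17% between spironolactone and prednisolone. *Gdf15*, a secreted stress cytokine, had 166, 112, and 108 CPM with vehicle and 55.5, 46.4, and 29.4 CPM with prednisolone (log2 difference -1.55 ± 0.27, adjusted *P* = 0.0283), and it was at 102, 73.8, and 107 CPM with spironolactone. The *Gdf15* call was lost in the fit on the 2 groups only and in those without vehicle 2, vehicle 3, spironolactone 3, or prednisolone 2. *Trib3*, a target of the integrated stress response, was lower with spironolactone than with prednisolone (0.928 ± 0.0183 versus 2.12 ± 0.682 CPM, -1.19 ± 0.32, adjusted *P* = 0.0499). Among genes that tissue dissociation is known to induce, 7 of 15 were lower with prednisolone than with vehicle, beside 0.758% of all genes tested, such as *Atf3* (322 ± 80.4 versus 678 ± 30.3 CPM, adjusted *P* = 0.00455), *Jun* (624 ± 138 versus 1301 ± 215 CPM, adjusted *P* = 0.00661), and *Hspa1a* (256 ± 9.32 versus 363 ± 15.4 CPM, adjusted *P* = 0.0152). Called higher with spironolactone than with prednisolone were 4 of 15, beside 2.38% of all genes tested. Among them were *Hspa1a* (387 ± 38.7 CPM, adjusted *P* = 0.00366), *Hspa1b* (439 ± 48.9 versus 290.1 ± 6.62 CPM, adjusted *P* = 0.00398), and *Jun* (1118 ± 125 CPM, adjusted *P* = 0.0125). Between spironolactone and vehicle 0 of 15 were called by edgeR (8 unadjusted, beside 9.29% of all genes tested). The sum of the 15 was 11249 to 11936 CPM with spironolactone, 14414 to 14991 with vehicle, and 7669 to 11444 with prednisolone.

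Outside the mitochondrial chromosome, the 5 genes whose log2 CPM followed the mean of the 10 members most closely over the 9 libraries were *LOC115490200* (*r* = 0.968), *Sspn* (0.965), *Ak1* (0.954), *Gpihbp1* (0.948), and *BC037704* (0.948). *Sspn* encodes sarcospan, a member of the dystrophin-associated complex, *Ak1* an adenylate kinase abundant in skeletal muscle, and *Gpihbp1* a protein of capillary endothelium that holds lipoprotein lipase. They were low, with *Ak1* at 5.05 to 7.39 CPM with vehicle, 8.60 to 13.0 with spironolactone, and 6.56 to 9.78 with prednisolone, and *Sspn* at 1.04 ± 0.363, 1.70 ± 0.133, and 1.19 ± 0.451 CPM (SD, *n* = 3). None of the 5 was called in any comparison by edgeR.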

How the data were processed

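RNA-Seq libraries of CD45+CD11b+ cells from 9 pools of *mdx* quadriceps were analysed. The authors aligned reads to mm39 with HISAT2 (2.2.1 in the submitters' processing notes) and counted them per gene with HTSeq (0.11.3), and the deposited values are raw counts. The annotation release, strand setting, and read length are not given in the sources used here. Lines that name no gene held 17.2% to 21.8% of the counted reads and were left out. The deposited tables of the authors' own comparisons, made with DESeq2 (1.32.0), hold fold changes and *P* values and were not used.

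Counts were tested with the two-sided quasi-likelihood F test of edgeR 4.0.16 (R 4.3.3; TMM; robust=TRUE; filterByExpr with a minimum count of 10 and a minimum total of 15; all 9 libraries in one fit), with Benjamini-Hochberg adjustment over 16618 genes and a threshold of 0.05. Levels are TMM-normalized CPM (counts scaled to the library total), and log2 CPM used a prior count of 2. The biological coefficient of variation was 0.170, well above counting error for the members. Libraries of a group differed by more than sampling noise (chi-square per degree of freedom 18.0 to 57.8), so all 9 were kept as separate replicates. Alternatives were DESeq2 1.42.0, limma-voom (limma 3.58.1), fits on 2 groups, other normalizations and filters, a replicate block, and leaving out each library.

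The members and gene lists were chosen with earlier results of these data known. Named genes are all 10 members, the other listed genes of the mitochondrial chromosome, up to 3 called genes per list and comparison by smallest *P*, the sort markers, and the 5 genes most correlated with the members. Genes named beyond these (*Polrmt*, *Tfam*, *Polg*, *Lrpprc*, *Tomm20*, *Gm10925*, *Lyz2*, *Mylpf*) stand as examples and were picked after their values were seen. Nuclear copies were found with blastn 2.17.0+ (word size 28) in GRCm39, and gene positions are those of GENCODE M39, which for the 10 members match RefSeq.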

Additional observations from a re-analysis of the deposited data

How the results depend on the processing

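The log2 differences of the 10 members kept their sign in both comparisons that involve spironolactone under all 20 alternatives, and the number called stayed at 0 except without a low count filter, where 10 were called against vehicle and 10 against prednisolone, and without prednisolone 2, where 7 were called against prednisolone (0 to 7 over the fits without 1 library). Over all genes, 528 and 1940 were called in those comparisons without a filter. Without prednisolone 2, 232 of all genes were called between spironolactone and prednisolone. Counting error was small beside the spread between pools, as every member had at least 675 counts in every library. Against vehicle, prednisolone changed sign with the library left out: over these fits the log2 difference ranged from -0.25 to 0.17 for *COX1*, -0.20 to 0.25 for *COX2*, -0.15 to 0.36 for *COX3*, -0.31 to 0.36 for *ATP6*, -0.084 to 0.34 for *CYTB*, -0.13 to 0.35 for *ND1*, -0.21 to 0.37 for *ND2*, -0.15 to 0.29 for *ND4*, -0.27 to 0.21 for *ND5*, and -0.43 to 0.12 for *ND6*. With all counted reads as denominator, the shares were 3.80% for vehicle, 5.80% for spironolactone, and 4.18% for prednisolone.

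Genes called in the lists of mitochondrial genes outside the members moved more. For spironolactone against vehicle there was 1 without a low count filter, against 0. For prednisolone against vehicle (1 called) there were 3 with DESeq2, 0 with the 2 groups only, 2 with RLE, 2 without the mitochondrial genes in the scaling, 5 without a filter, 2 with at least 10 counts in every library, and 0 to 21 without 1 library (21 without vehicle 1). For spironolactone against prednisolone (12 called) there were 22 with DESeq2, 31 with the 2 groups only, 32 without a filter, 8 with limma-voom, and 0 to 44 without 1 library. Correlations of same-numbered libraries were -0.04 to 0.15, over 0.1 in 2 of 9 pairs, both of vehicle with spironolactone (0.12 and 0.15). With 3 libraries per group, these values cannot show whether replicate numbers pair the libraries. With the replicate block, 0 members were called in each comparison, and 0, 2, and 17 list genes and 8, 336, and 1082 of all genes in the order above. Over all genes tested, the counts of 3, 293, and 859 became 266, 684, and 1595 with DESeq2 and 528, 1019, and 1940 without a filter, 0, 262, and 822 with limma-voom, and 0 to 34, 69 to 826, and 232 to 1898 without 1 library, so the background shares move with them. The cause of these moves was not tested.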
